A study of Mus musculus with 12 samples.

Results

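RNA abundance was compared between RBBP5 KO and wildtype mouse embryonic fibroblasts (MEFs, connective tissue cells grown from embryos) kept in full medium, with 3 libraries in each group. Every gene symbol with at least 1 TPM in at least 3 of these 6 libraries was taken, which gave 12380 of the 25117 symbols in the table. TPM is a share of the library's RNA corrected for transcript length. Of the 12737 symbols left out, 5291 were at 0 in all 6 libraries. Of the 12380 genes, 1011 passed through 1 group only, 712 through wildtype and 299 through KO, and such a gene, under 1 TPM in all 3 libraries of the other group, had to differ. The same minimum over all 12 libraries of the study leaves 12653 genes.

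Both groups came from Rbbp5 flox/flox cells that also carry Rosa26 CRE (+/+). The KO group received tamoxifen for 7 days and the wildtype group received none, and both were then held for 16 hours in full medium, DMEM with 10% FBS. The study's other 2 groups carry the same genotype labels and were held in EBSS, a balanced salt solution used for starvation. "Wildtype" therefore means floxed cells without tamoxifen, and effects of tamoxifen, of Cre activity and of the loss of RBBP5 cannot be told apart. The sample titles number the 3 libraries of a group with the tag brep, which they do not spell out. The sources used here do not say whether these libraries came from separate cultures, so p-values measure only the spread between them.

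RBBP5 is a shared core subunit of the SET1 and MLL complexes. These place methyl groups on lysine 4 of histone H3 around the starts of active genes and at enhancers. It forms the common module of these complexes with WDR5, ASH2L and DPY30 and is needed for their full methyltransferase activity. Fibroblasts are known for making extracellular matrix, growth factors and the enzymes that remodel both, and for expressing transcription factors that mark mesenchyme and body position.

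The sequence upstream of 3 genes is shown because these genes anchor the comparison: the targeted gene, and 2 of the genes that fell furthest, with very different upstream sequence. Each is the 250 bases before the RefSeq transcript start on GRCm38.p6, the assembly that mm10 names, written 5′ to 3′ in the gene's direction. Capitals mark every CG dinucleotide and every TATAAA, searched on both strands (its reverse reads TTTATA). CG reads the same on both strands, and the TATAAA matches do not overlap one.
Rbbp5, chr1:132477117-132477366, plus strand: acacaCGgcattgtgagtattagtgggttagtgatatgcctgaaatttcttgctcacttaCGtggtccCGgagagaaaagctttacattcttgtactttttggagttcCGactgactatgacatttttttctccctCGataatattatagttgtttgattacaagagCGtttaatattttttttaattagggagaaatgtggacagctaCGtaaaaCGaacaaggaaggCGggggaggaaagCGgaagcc
Igfbp3, chr11:7213924-7214173, minus strand: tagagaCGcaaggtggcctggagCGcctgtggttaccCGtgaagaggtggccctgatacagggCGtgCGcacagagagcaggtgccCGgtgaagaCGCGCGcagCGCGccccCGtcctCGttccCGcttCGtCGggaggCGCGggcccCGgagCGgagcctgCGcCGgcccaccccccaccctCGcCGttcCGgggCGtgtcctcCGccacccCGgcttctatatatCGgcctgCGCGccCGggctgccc
Spp1, chr5:104434861-104435110, plus strand: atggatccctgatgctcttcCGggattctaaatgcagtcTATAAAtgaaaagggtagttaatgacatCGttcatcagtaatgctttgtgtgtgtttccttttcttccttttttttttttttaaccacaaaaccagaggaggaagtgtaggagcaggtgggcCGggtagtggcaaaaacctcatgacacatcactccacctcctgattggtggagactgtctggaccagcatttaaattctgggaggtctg
The Rbbp5 window holds 10 CG dinucleotides, that of Igfbp3 32 and that of Spp1 only 3. Over all 27025 RefSeq mouse promoters in the reference table the median is 6 in a window of this length, and 17.7% hold 20 or more. TATAAA occurs in 13% of them and is present once among these 3, upstream of Spp1 at base −211 counted from the start. RefSeq lists 2 promoters for Spp1 and the first is shown. A match is only a run of letters. A comparison of CpG content or motifs over the tested genes was void, because 9860 of 12380 (79.6%) matched a promoter, under the 80% required.

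Rbbp5 (ENSMUSG00000026439.14, chromosome 1 from 132477365 to 132505659 on GRCm38) was at 26.2, 25.7 and 26.2 TPM in wildtype and at 7.47, 9.34 and 8.31 TPM in KO. The 3 KO libraries were all below the wildtype libraries, and the mean was 3.11 times lower. The log2 change, here and below a difference of log2(TPM + 1) that understates the change of low genes, was −1.53 (SE 0.09, limma adjusted p = 5.4e-07). Which exons were deleted is not stated in the labels, and reads of the remaining exons still count towards the gene. In the EBSS groups, Rbbp5 went against the labels, at 11.8 to 14 TPM in libraries labelled wildtype and 23 to 31.9 TPM in libraries labelled KO, so those groups are used only to describe whole chromosomes and in one alternative that fits all 12 libraries, and are called by their labels.

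The other 21 subunits of the SET1 and MLL complexes on the list were all measured, and with Rbbp5 the list had 7 genes that rose, 10 that fell and 5 that did not pass the test. Across all 12380 genes, 3648 rose (29.5%) and 5880 fell (47.5%), so these shares are near the background. Dpy30, a partner of RBBP5 in the core module, was at 131, 102 and 121 TPM in wildtype and 280, 302 and 262 TPM in KO. It rose by 1.25 (SE 0.10, adjusted p = 3.5e-06), without overlap between the groups. Another core partner, Ash2l, on chromosome 8, rose by 0.37 (0.12 and not called with its chromosome centred), and Wdr5 was at −0.10 (adjusted p = 0.18). Among the methyltransferases, Kmt2a fell by 0.91, Kmt2b by 0.69, Setd1b by 0.56, Kmt2d by 0.46 and Setd1a by 0.32, while Kmt2c was at −0.21 (adjusted p = 0.2). With chromosomes centred after median-of-ratios scaling, Kmt2a was at −0.36, and Kmt2d (−0.18) and Setd1a (−0.10) were not called. Hcfc1, a scaffold subunit encoded on the X chromosome, fell by 1.25 (0.81 with the chromosome centred), and its paralog Hcfc2 rose by 1.01. Men1, the MLL cofactor menin, rose by 0.60.

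The groups were far apart for most of the transcriptome, as the plot of mean levels shows. In all, 9528 genes (77%) passed the test at an adjusted p of 0.05, and 9983 (80.6%) had 3 KO libraries all above or all below the 3 wildtype libraries. A change of at least 2-fold was reached by 733 genes that rose (5.92%) and 1877 that fell (15.2%). Without the 1011 genes that passed through 1 group only, 8519 of 11369 (74.9%) passed the test. The median gene was at −0.17, and only 1926 genes (15.6%) had a 95% interval that lay within 1.25-fold of no change. Replicates differed much less: 14 to 35 genes differed by 2-fold or more between wildtype libraries, 49 to 61 between KO libraries, and 2510 to 3052 between a library of each group.

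**Figure D1:**
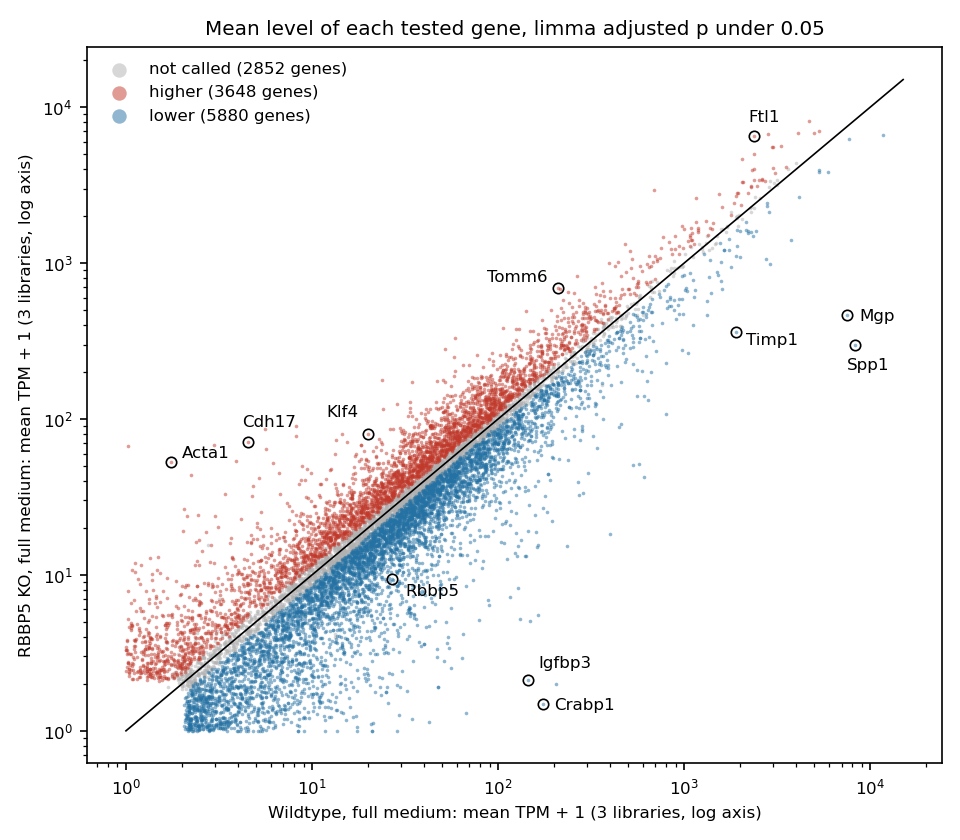
Mean TPM + 1 of the 12380 tested genes in wildtype (x axis) and KO (y axis), 3 libraries each, both on log axes; each point is a gene, red where it rose, blue where it fell, grey where it did not pass, and the line marks equal levels. The blue points (5880 genes) outnumber the red (3648), and the named genes lie far from the line.

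The direction of weak changes depends on the scale. Dividing each library by a median-of-ratios factor, 1.06 to 1.07 for wildtype and 0.886 to 0.973 for KO, moved the median change from −0.17 to −0.00237. It gave 4771 genes that rose (38.5%) and 4918 that fell (39.7%), 78.3% in all. No gene was called in opposite directions by the scales, and all 3648 rises as deposited remained rises. Of the 5880 falls, 4918 remained.

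The libraries themselves differed in composition between the groups. Cytosolic ribosomal protein genes took 14.5% to 14.8% of TPM in wildtype and 16.2% to 18.1% in KO, and the median tested gene was at 23.5 to 23.7 and 18.5 to 20.7 TPM. Genes at 1 TPM or more numbered 12082 to 12116 in wildtype and 11606 to 11640 in KO. Rn45s, the ribosomal RNA precursor, was at 68.3 to 69.3 TPM in wildtype and 176 to 272 TPM in KO. Long transcripts were lower: with genes ranked by length into 5 equal classes, the median change was −0.02 in the class with the shortest transcripts, −0.12 in the middle class and −0.40 in the class with the longest. The part of these shifts in the single-gene changes was not tested. In bulk RNA, fewer cells of a type and less RNA per cell cannot be told apart.

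Gene classes differed too, beside the 29.5% that rose and the 47.5% that fell over all genes tested. Of 40 small nucleolar RNA genes tested, 1 rose (2.5%) and 31 fell (77.5%), with a median of −2.06. Of 22 microRNA genes, 1 rose (4.5%) and 11 fell (50%), with a median of −1.64, so the share of falls was near that of all genes. In all, 15 genes with such symbols were under 0.1 TPM in every KO library and at 1 TPM or more in every wildtype library. They had passed the filter through wildtype alone and had to differ. Both classes are short or unpolyadenylated RNAs in poly(A)-selected libraries, and their depth is unknown. Long noncoding classes went the other way: 55 of 91 antisense genes rose (60.4%) and 20 fell (22%), with a median of 0.47. Of 28 bidirectional promoter RNAs, 20 rose (71.4%) and 3 fell (10.7%), with a median of 0.66. Protein-coding genes, 11653 of those tested, had a median of −0.17.

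Whole chromosomes were shifted in KO. After median-of-ratios scaling, the median gene of chromosome 8 stood 0.46, 0.40 and 0.43 above the wildtype mean in the 3 KO libraries. The median of chromosome 9 stood at −0.40, −0.37 and −0.38, that of chromosome 14 at −0.32, −0.31 and −0.32, and that of the X chromosome at −0.28, −0.22 and −0.27. On these 4 chromosomes the wildtype libraries lay within 0.02 of their own mean, so the groups did not overlap. Of 689 tested genes on chromosome 9, 11.5% rose and 72.7% fell as deposited, and of 403 on chromosome 14, 11.7% and 76.2%. On chromosome 8, 50.7% of 667 genes rose and 26.5% fell. On chromosomes 8, 9 and 14 the offsets ran along the chromosome in windows of 20 Mb with at least 20 genes. On chromosome 8, 7 of 7 windows were above 0, and 7 of 7 and 4 of 4 were below 0 on chromosomes 9 and 14. On the X chromosome, 7 of 8 were below 0, but unevenly, from −0.54 to 0.00063. The window from 20 to 40 Mb was at −0.0024, so the X median does not describe every window.

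**Figure D2:**
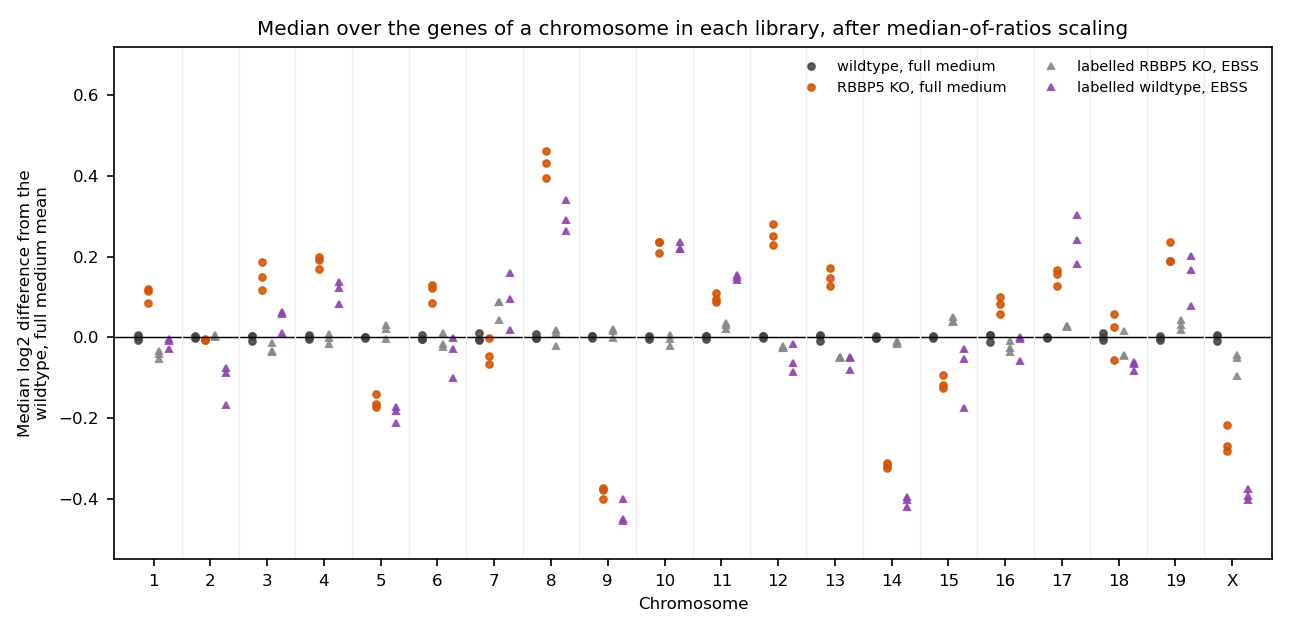
Median difference in log2(TPM + 1) from the wildtype, full medium mean (y axis) over the genes of each chromosome (x axis), after median-of-ratios scaling; each point is 1 library, 3 per group, with circles for full medium and triangles for EBSS. KO libraries sit between 0.40 and 0.46 on chromosome 8 and between −0.40 and −0.37 on chromosome 9, and the libraries labelled wildtype, EBSS lie on the same side of 0 on both.

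The same 4 chromosomes, picked after their values were seen, were also shifted in the libraries labelled wildtype, EBSS, at 0.26 to 0.34 on chromosome 8, −0.46 to −0.40 on chromosome 9, −0.42 to −0.40 on chromosome 14 and −0.40 to −0.38 on the X chromosome. In the libraries labelled KO, EBSS, these 4 medians lay between −0.10 and 0.02. On these 4 chromosomes, the libraries with the lower Rbbp5 levels, whatever their label, were those with the offsets. Some others were also shifted in both groups. Chromosome 10 stood at 0.21 to 0.24 in KO and 0.22 to 0.24 in the libraries labelled wildtype, EBSS. Chromosome 5 stood at −0.17 to −0.14 and −0.21 to −0.17, and chromosome 17 at 0.13 to 0.17 and 0.18 to 0.30. Several did not follow: chromosome 12 stood at 0.23 to 0.28 in KO, as far from 0 as the X chromosome. In the libraries labelled wildtype, EBSS, it stood at −0.08 to −0.02. Chromosome 13 stood at 0.13 to 0.17 against −0.08 to −0.05, chromosome 3 at 0.12 to 0.19 against 0.01 to 0.06 and chromosome 1 at 0.09 to 0.12 against −0.03 to −0.01. Genes of the Y chromosome were present in both full medium groups, but did not move together. Ddx3y was at 13.9 to 16 TPM in wildtype and 11.1 to 17.2 TPM in KO and Uty at 3.18 to 3.85 and 2.36 to 3.74 TPM, with overlap, whereas Eif2s3y was higher in KO (28.2 to 30.5 against 66.9 to 76.8 TPM) and Kdm5d lower (3.83 to 4.18 against 1.9 to 2.3 TPM). Xist, the RNA of X inactivation, was at 0.03 TPM or less. DNA was not measured, and what moves with the offsets was not tested beyond these values. As an alternative chosen after seeing them, each library's chromosome median was subtracted from its values after median-of-ratios scaling. A centred value thus differs from the deposited one by both steps. Centring left 4456 genes that rose (36%) and 5098 that fell (41.2%). The same call on all 3 scales was given to 7938 genes (3504 that rose and 4434 that fell). Changes below on chromosomes 8, 9, 14 and X carry the centred value where it matters.

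Among the genes that fell furthest were secreted and matrix genes. Crabp1, a retinoic acid binding protein, was at 166, 196 and 159 TPM in wildtype and 0.661, 0.541 and 0.282 TPM in KO. H19, an imprinted noncoding RNA, was at 186, 227 and 200 TPM against 0.786, 1.13 and 1.11 TPM. Igfbp3, a carrier of insulin-like growth factors whose upstream sequence is given above, was at 144, 140 and 148 TPM against 1.02, 0.744 and 1.58 TPM. All KO libraries of these 3 genes were below 2 TPM and all wildtype libraries above 100, with log2 changes of −6.87, −6.67 and −6.12 (SE 0.12, 0.10 and 0.13; adjusted p = 2.7e-09, 2e-09 and 5.8e-09). The rule for the largest changes requires groups that do not overlap, so their separation is no result. Crabp1, Has2, Gjb2 and Serpina3g had also passed the filter through wildtype alone. Crabp1 lies on chromosome 9 and was at −6.35 with its chromosome centred.

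Has2, a hyaluronan synthase, fell by 5.69 and the gap junction gene Gjb2 was at −5.22. The chemokine Cxcl1 fell by 4.90, the fibrillar collagen gene Col5a3 by 4.87, the retinol carrier Rbp4 by 4.74, and the membrane protein gene Itm2a was at −4.65. Serpina3g fell by 4.87, but it belongs to a cluster of near-identical genes and its reads are uncertain. Rbp4 varied among the KO libraries, at 1.76, 0.114 and 0.868 TPM, still below 44.6 TPM, the lowest wildtype library.

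Acta1, skeletal muscle actin, was at 0.913, 0.674 and 0.668 TPM in wildtype and 58.1, 45.5 and 51.5 TPM in KO. It rose by 4.91 (SE 0.11, adjusted p = 6.1e-09), and by 4.61 with its chromosome, 8, centred. Cdh17, an intestinal cadherin, was at 3.37, 3.53 and 3.7 TPM against 68, 72.4 and 70.5 TPM, a rise of 3.97 (SE 0.07, adjusted p = 2.7e-09). Acta1, like S100a14 and Krtap3-2, had passed the filter through KO alone. Other large rises were in the S100 proteins S100a7a (3.47) and S100a14 (3.26), the peptide hormone Cck (3.32), the hair keratin-associated gene Krtap3-2 (3.31), Fam71f1 (3.47) and AU021092 (3.70).

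Measured by TPM rather than fold, the losses were led by abundant genes. Spp1, osteopontin, a secreted phosphoprotein of matrix, was at 8253, 8412 and 8161 TPM in wildtype and 329, 273 and 283 TPM in KO. Mgp, matrix Gla protein, an inhibitor of calcification, was at 7555, 7627 and 7256 TPM against 479, 526 and 394 TPM. No KO library of either secreted gene came within 10 times of the wildtype level. Spp1 fell by 4.81 (SE 0.08, adjusted p = 2.6e-09) and Mgp by 4.01 (SE 0.10, adjusted p = 9.7e-09). Eef1a1, a translation elongation factor on chromosome 9, was at 11612, 11824 and 11831 TPM against 6813, 6841 and 6197 TPM and fell by 0.83. It was at −0.66 after median-of-ratios scaling alone, and at −0.26 and not called with its chromosome centred. Timp1, an inhibitor of matrix metalloproteinases on the X chromosome, fell by 2.40 (1.96 with the chromosome centred). The tropomyosin gene Tpm1 fell by 1.56 (0.99 with chromosome 9 centred) and the actin-binding thymosin Tmsb4x by 1.43 (0.98 with the X chromosome centred). Timp1 and Tmsb4x lie in X windows with medians of −0.0024 and −0.13, nearer 0 than the X median that was subtracted. Ppia, a prolyl isomerase, fell by 0.63, and Tpt1, on chromosome 14, by 0.48. Tpt1 was at −0.31 after median-of-ratios scaling alone, and at 0.02 and not called with the chromosome centred.

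The largest gains in TPM were in the ferritin subunits, which store iron. Ftl1 was at 2259, 2549 and 2321 TPM in wildtype and 6882, 6457 and 6192 TPM in KO. Fth1 was at 2772, 2874 and 2796 TPM against 7529, 6870.5 and 5875 TPM. Both rose, by 1.45 (SE 0.07) and 1.26 (SE 0.09), although ferritin genes have many processed copies that can share reads. The rule for the largest gains and losses in TPM also requires groups that do not overlap, so their separation is no result. The calcium-binding genes S100a11 and S100a6 rose by 1.17 and 0.77, the myosin light chain Myl6 by 0.76 and the glycolytic enzyme Gapdh by 0.39. Over all genes tested, gains added up to 181018 TPM and losses to 184766 TPM.

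Some genes were present in 1 group only. There were 84 genes at 1 TPM or more in all 3 wildtype libraries and under 0.1 TPM in all 3 KO libraries, and 31 the other way. Of the 84, 15 had small nucleolar RNA or microRNA symbols, against 0 of the 31. Kap, an androgen-regulated gene named for the kidney, was at 21, 19.4 and 19.8 TPM in wildtype and listed at 0 in KO. In the other direction, the cornified envelope gene Cnfn was at 0, 0.074 and 0 TPM in wildtype and 7.31, 4.56 and 8.61 TPM in KO. Trim29, an epithelial TRIM protein gene, was under 0.1 TPM in wildtype and at 4.12, 3.89 and 3.36 TPM in KO, and Tdrd12, of the germline piRNA pathway, at 5.38, 2.7 and 3.59 TPM.

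The plot of 16 genes by library shows the spread of the replicates beside the change.

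**Figure D3:**
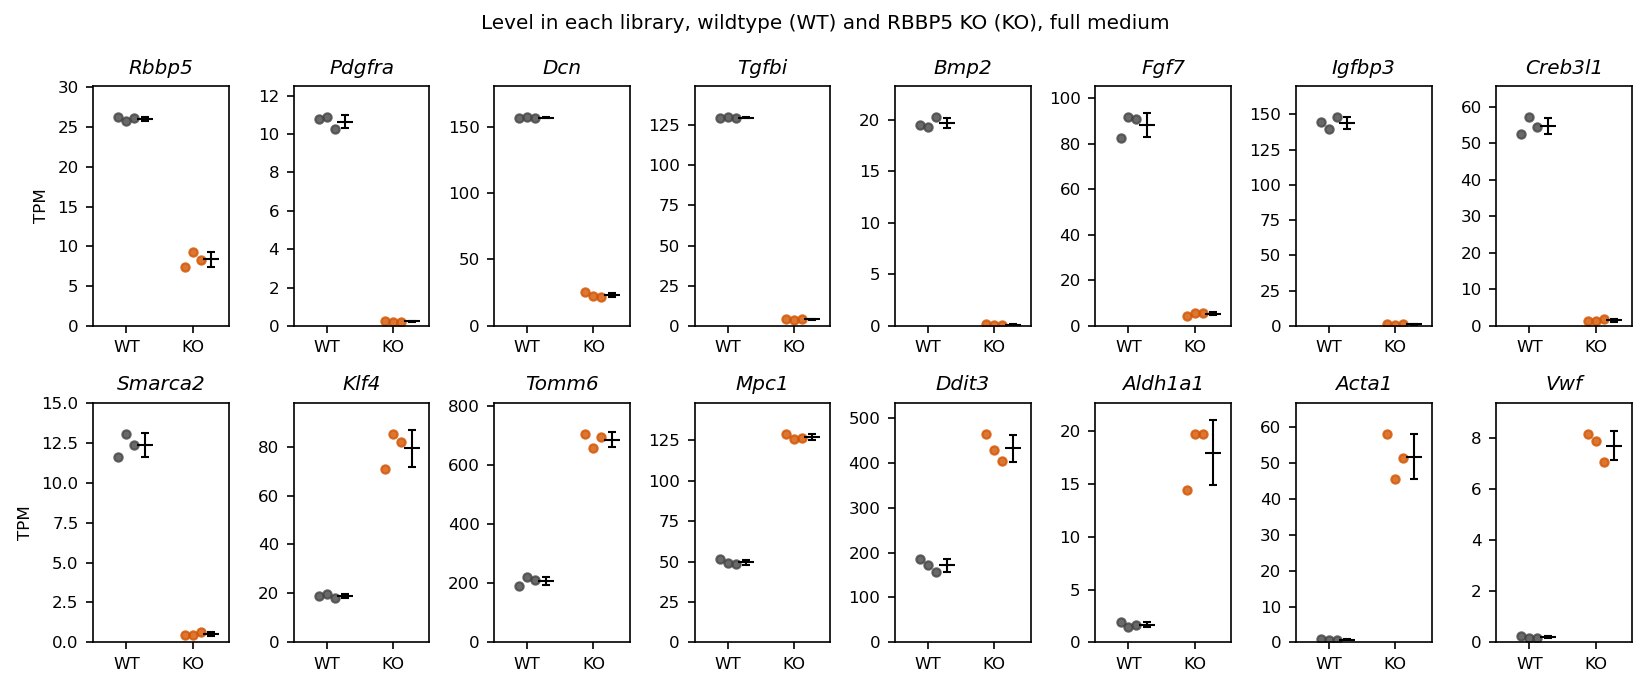
TPM (y axis, from 0, a scale of its own per gene) in each of 3 wildtype (WT) and 3 KO libraries for 16 genes; points are libraries and the bar beside them is the mean ± SD. The groups are separate, which the filter fixed for Pdgfra, Bmp2, Smarca2, Acta1 and Vwf: Pdgfra is at 10.3 to 10.9 TPM in wildtype and 0.224 to 0.263 TPM in KO, and Klf4 at 18.2 to 19.7 against 70.7 to 85.2 TPM.

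Most markers of the fibroblast itself were lower. Of 13 fibroblast markers 11 were tested, and 0 rose, 9 fell and 2 did not pass, with 1 and 9 after median-of-ratios scaling. Of these falls, 7 were among the 9 markers that had not passed the filter through 1 group only. Pdgfra, the platelet-derived growth factor receptor that defines many fibroblasts, was at 10.8, 10.9 and 10.3 TPM in wildtype and 0.263, 0.224 and 0.225 TPM in KO. Dcn, the matrix proteoglycan decorin, was at 156, 157 and 156 TPM against 25.2, 22.8 and 21.9 TPM, and Col1a1, of type I collagen, at 1056, 1047 and 1047 TPM against 214, 259 and 323 TPM. The log2 changes were −3.23, −2.70 and −2.00, and the groups were separate for Dcn and Col1a1, while Pdgfra had passed the filter through wildtype alone and had to differ. Prrx1 and Twist1, mesenchymal transcription factors, fell by 2.34 and 1.04. Vim, the intermediate filament vimentin, was at 0.12 (adjusted p = 0.097) and passed as a rise after scaling, and S100a4 was at 0.07 (adjusted p = 0.42). Thy1 and Fap were below the filter. The summed level of the 13 markers was 8629 to 8869 TPM in wildtype and 6547 to 7194 TPM in KO.

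Transcription factors of mesenchyme and body patterning followed. Of 80 tested on a list of 108, 10 rose and 59 fell, 13 and 57 after scaling and 11 and 59 with chromosomes centred, against 29.5% and 47.5% of all genes. Their median was −0.79, against −0.17 over all genes tested. Foxs1, which passed the filter through wildtype alone, fell by 3.01, Nfatc4 by 2.78 and Osr1 by 2.64. Klf4, a reprogramming and epithelial barrier factor, was at 19.1, 19.7 and 18.2 TPM in wildtype and 70.7, 85.2 and 81.9 TPM in KO. All KO libraries were at least 3 times higher than any wildtype library, a rise of 2.00 (SE 0.08, adjusted p = 8.1e-08). Its relative Klf2 rose by 1.05 and Foxq1 by 0.79. Of the 80, 10 had passed the filter through 1 group only, and 10 rises and 49 falls were among the other 70.

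Lists of intercellular signalling genes differed in how many members fell, as the plot of list shares shows beside all genes. List counts here and below stand beside 29.5% rises and 47.5% falls over all genes tested. After scaling these shares were 38.5% and 39.7%. Of 49 genes of TGF-beta and BMP signalling, 5 rose and 40 fell (6 and 39 after scaling), with a median of −1.04. Without 8 that had passed the filter through wildtype alone, 5 rose and 32 fell. Among the ligands, Bmp2 was at 19.5, 19.3 and 20.3 TPM in wildtype and 0.15, 0.105 and 0.0734 TPM in KO. Grem1, the secreted BMP antagonist gremlin, was at 209, 253 and 241 TPM against 11.7, 16.6 and 14.3 TPM. Tgfbi, a matrix protein induced by TGF-beta, was at 129, 130 and 129 TPM against 4.37, 3.78 and 4.44 TPM. Ligand, antagonist and target were at −4.22, −3.96 and −4.65 (SE 0.07, 0.12 and 0.07), and Bmp2 is one of the 8 that had to differ. The rises were in intracellular members: Smad9 (1.08), the inhibitory Smad7 (0.77) and Id4 (0.55).

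**Figure D4:**
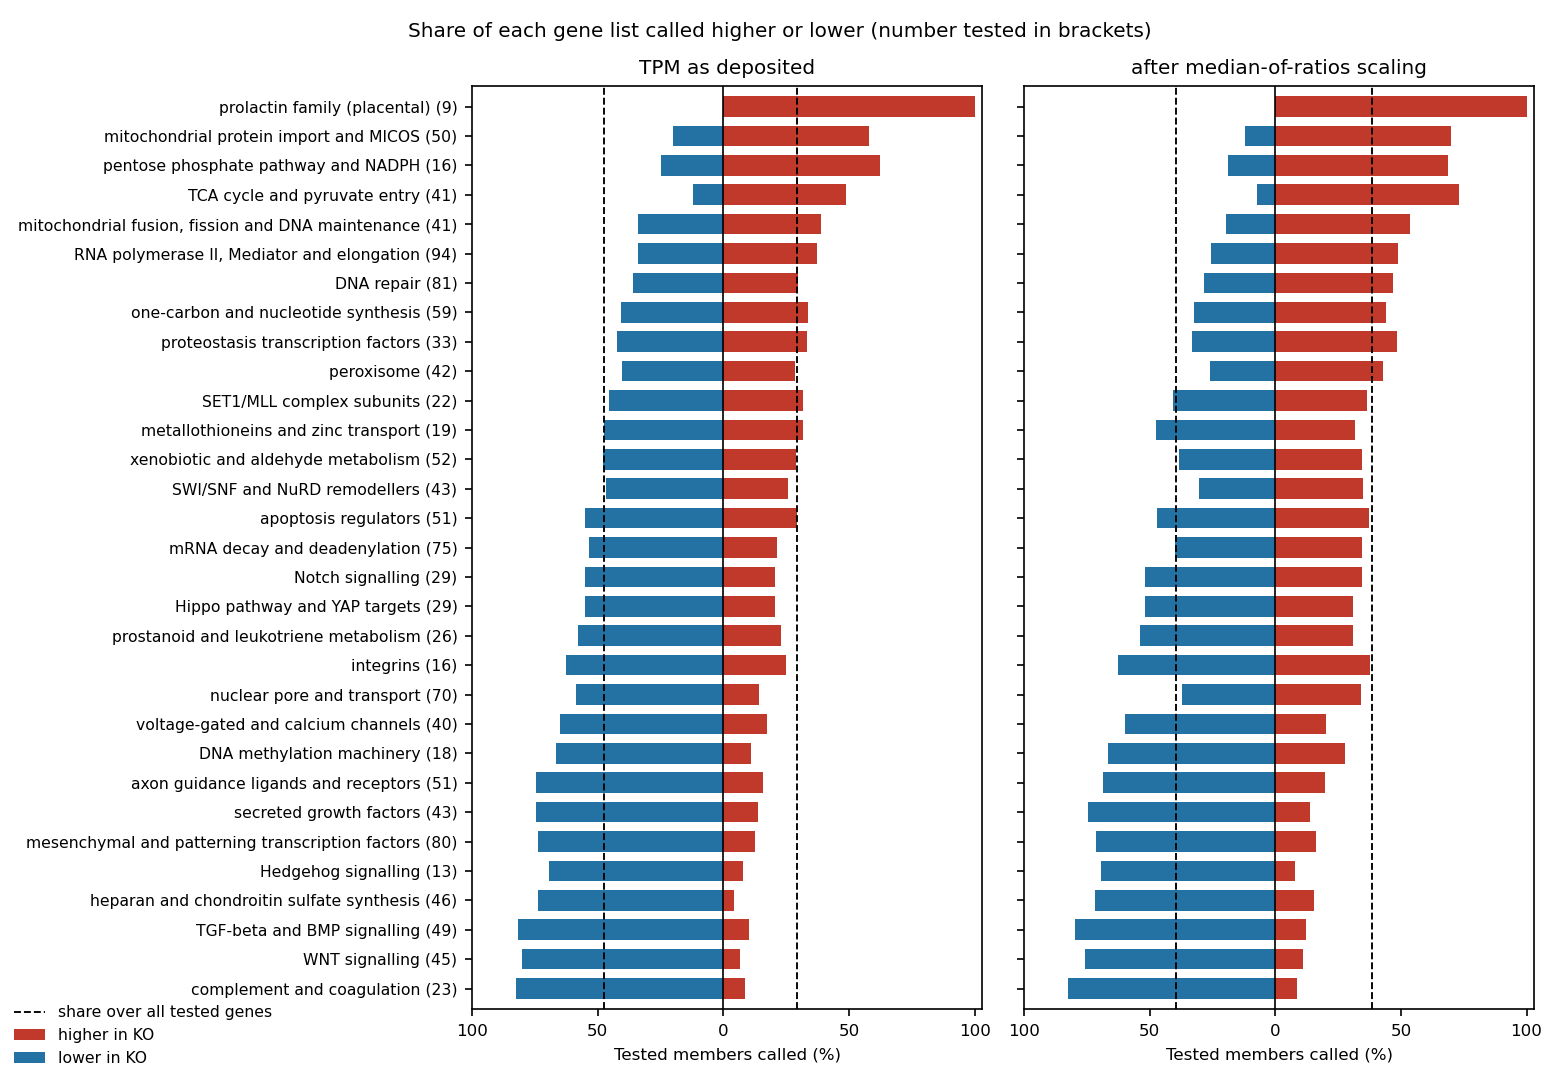
Share of the tested members of each of 31 gene lists that rose (red, to the right) or fell (blue, to the left) in KO, in percent, with TPM as deposited (left panel) and after median-of-ratios scaling (right panel); dashed lines give the shares over all 12380 genes. Signalling lists reach 80% or more falls (TGF-beta 40 of 49, WNT 36 of 45), and mitochondrial import has 29 rises and 10 falls of 50.

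WNT signalling showed 3 rises and 36 falls of 45 genes (5 and 34 after scaling, median −0.94). Of these, 10 had passed the filter through wildtype alone, Wnt7b among them, and 26 falls remained without them. The ligand Wnt7b fell by 2.96, the receptor Fzd1 by 3.08, and Tcf7, a transcription factor of the pathway, was at −3.87. Fzd1 was at 130, 124 and 128 TPM in wildtype and 10.8, 15.6 and 16.8 TPM in KO, without overlap. The rises were small: Tcf7l2 (0.45), Kremen1 (0.27) and Axin1 (0.20). Hedgehog signalling had 1 rise and 9 falls of 13 (8 falls without 1 gene that had passed the filter through 1 group only). The falls were led by the co-receptor Gas1 (−3.76), the glypican Gpc3 (−1.81) and the co-receptor Cdon (−1.39, or −0.83 with chromosome 9 centred). Notch signalling, at 6 rises and 16 falls of 29 (12 falls without 4 genes that passed through 1 group only), was nearer the background; its receptor Notch3 fell by 2.17 and its ligand Jag1 by 1.68, while the target Hey2 rose by 1.36. Of 29 Hippo pathway genes and YAP targets, 6 rose (20.7%) and 16 fell (55.2%), against 29.5% and 47.5% of all genes. Without 2 that had passed the filter through 1 group only, 14 falls remained. YAP targets split, with Ankrd1 at −1.88 and Ccn1 at 0.58.

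Secreted growth factors had 6 rises and 32 falls of 43 (the same numbers after scaling, median −0.96), and 10, with Angptl4 and Gdf15 among them, had passed the filter through 1 group only. The other 33 had 5 rises and 23 falls. Fgf7, which acts on epithelium, was at 82.4, 91.6 and 90.7 TPM in wildtype and 4.56, 5.73 and 5.85 TPM in KO. It fell by 3.81 (SE 0.10, adjusted p = 9.7e-09), the hepatocyte growth factor gene Hgf by 3.28 and Angptl4, an inhibitor of lipoprotein lipase, by 4.17. Vegfb was at 71, 74.8 and 72.8 TPM against 200, 181 and 162 TPM and rose by 1.29 (SE 0.08). Gdf15, a stress-induced cytokine on chromosome 8, rose by 1.61 (1.29 with the chromosome centred), and Kitl by 0.69.

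Of 51 axon guidance genes, 8 rose and 38 fell (10 and 35 after scaling, median −0.73). Of the falls, 11 were in genes that had passed the filter through wildtype alone, Sema7a and Slit3 among them, and 27 were not. The semaphorins split within the family: Sema7a fell by 3.82, whereas Sema3e, Sema3c and Sema3b rose by 1.93, 1.70 and 1.57. Sema3c was at 33.6, 31.6 and 32.1 TPM in wildtype and 80.4, 123 and 124 TPM in KO, with the first KO library well below the others but above all wildtype libraries. The repellent Slit3 and its receptor Robo1 fell by 2.95 and 2.91. Among 16 integrins, 4 rose and 10 fell, or 3 and 9 without 2 that had passed the filter through 1 group only. The fibronectin receptor subunit Itga5 went from 303, 304 and 303 TPM to 42.5, 42.4 and 47.8 TPM, a fall of 2.75 (SE 0.06), and Itgb3 fell by 2.92. Itgb7, a leukocyte integrin subunit, rose by 2.19.

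RNA of enzymes that build or edit the sugar chains of the matrix was mostly lower; the chains were not measured. Of 46 genes of heparan and chondroitin sulfate synthesis, 2 rose and 34 fell (7 and 33 after scaling, median −0.81), and 28 falls remained without 6 genes that had passed the filter through 1 group only. Hs3st1, a heparan sulfate sulfotransferase, fell by 3.13, the uronyl sulfotransferase gene Ust by 2.34 and Sulf1, which removes sulfate at the cell surface, by 2.33. The 2 rises were linker enzymes, B3gat3 (1.04) and B4galt7 (0.48). Complement and coagulation genes had 2 rises and 19 falls of 23 (median −1.39, the same counts after scaling), among 42 listed. Without 2 that had passed the filter through 1 group only, 2 rose and 17 fell. The plasminogen activator Plat was at 119, 121 and 124 TPM in wildtype and 12, 11.9 and 14.3 TPM in KO. It fell by 3.16, and was at −3.42 with chromosome 8 centred.

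Voltage-gated and calcium channels had 7 rises and 26 falls of 40 (6 and 20 without 7 that had passed the filter through 1 group only, Atp2b4 and Atp2a3 among them), led by Kcnj15 (−2.30) and the plasma membrane calcium pump Atp2b4 (−2.15), while the calcium pump Atp2a3 rose by 1.35. Prostanoid and leukotriene genes had 6 rises and 15 falls of 26, but 6 and 9 without the 6 genes, Ptgis among them, that had passed the filter through wildtype alone. There the prostacyclin synthase Ptgis fell by 2.02 and the cyclooxygenase Ptgs1 by 1.96, and Ptgds, a prostaglandin D synthase, rose by 2.92 from 4.25, 3.83 and 3.42 TPM to 40.2, 27.4 and 40.2 TPM.

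Lists of mitochondrial genes outside the respiratory chain differed in their counts. Of 50 genes of mitochondrial protein import and MICOS, the complex that shapes cristae, 29 rose and 10 fell, 35 and 6 after scaling and 36 and 5 with chromosomes centred. None had passed the filter through 1 group only, and the median was 0.26 against −0.17 for all genes. Tomm6, a small subunit of the outer membrane import pore, was at 192, 220 and 211 TPM in wildtype and 706, 657 and 696 TPM in KO, although its exons overlap those of the readthrough gene Gm21981. Pam16, of the inner membrane import motor, was at 66.3, 63.7 and 74.1 TPM against 198, 164 and 158 TPM. Their rises were 1.72 and 1.33 (SE 0.06 and 0.09), with no overlap. Mtx3 and Tomm70a fell by 1.27 and 0.61.

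Of 41 genes of the TCA cycle and pyruvate entry, 20 rose and 5 fell (30 and 3 after scaling, median 0.22). The carrier that brings pyruvate into mitochondria rose in both subunits: Mpc1 was at 51.4, 49 and 48.3 TPM in wildtype and 129, 126 and 126 TPM in KO, and Mpc2 at 43.8, 39.3 and 42.5 TPM against 94.2, 77.1 and 95 TPM. The changes were 1.34 (SE 0.05) and 1.06 (SE 0.09), and Pdk4, a kinase that holds pyruvate dehydrogenase inactive, fell by 0.92. Sdhd, on chromosome 9, fell by 0.52 as deposited and was at −0.35 after median-of-ratios scaling alone. It was at 0.05 with its chromosome centred (adjusted p = 0.57).

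The genes that maintain mitochondria were more evenly split, with 16 rises and 14 falls of 41 (22 and 8 after scaling). Regulators of mitochondrial gene expression were among the rises. Ppargc1a, the coactivator PGC-1 alpha, was at 0.93, 0.857 and 0.813 TPM in wildtype and 4.9, 6.08 and 5.1 TPM in KO, and its partner Esrra at 15.8, 16.1 and 16.1 TPM against 46.7, 41.2 and 43.2 TPM. They rose by 1.76 and 1.39 (SE 0.09 and 0.07), and Ppargc1a had passed the filter through KO alone. Tefm, a mitochondrial transcription elongation factor, fell by 0.96.

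Metabolic lists otherwise had no single direction. The pentose phosphate pathway and NADPH list had 10 rises and 4 falls of 16, yet its entry enzyme G6pdx, on the X chromosome, was at 105, 105 and 104 TPM in wildtype and 31, 35.1 and 33.4 TPM in KO. It fell by 1.63 (1.19 with the chromosome centred), and Taldo1 rose by 0.68. Peroxisomal genes had 12 rises and 17 falls of 42, which turned to 18 and 11 after scaling, and one-carbon and nucleotide synthesis 20 and 24 of 59, which turned to 26 and 19. Rrm2, a ribonucleotide reductase subunit, was at 220, 210 and 218 TPM against 475, 518 and 537 TPM and rose by 1.23 (SE 0.06), while Mat2a, which makes the methyl donor S-adenosylmethionine, went from 236, 218 and 231 TPM to 93.6, 107 and 102 TPM and fell by 1.17 (SE 0.07).

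Of 52 xenobiotic and aldehyde metabolism genes, 15 rose and 25 fell, close to the background, and 11, with Mgst2 and Cyp7b1 among them, had passed the filter through 1 group only. The retinaldehyde dehydrogenase Aldh1a1 was at 1.94, 1.43 and 1.67 TPM in wildtype and 14.4, 19.7 and 19.7 TPM in KO, and its paralog Aldh1a7 at 3.78, 2.62 and 2.29 TPM against 42.3, 56.8 and 58.2 TPM. Both rose, by 2.81 and 3.78, but these paralogs are alike enough to share reads. Mgst2 and Cyp7b1 fell by 2.80 and 2.15. Metallothioneins and zinc transporters had 6 rises and 9 falls of 19 (31.6% and 47.4%), near the 29.5% and 47.5% of all genes. Mt2 was at 1005, 935 and 962 TPM against 346, 252 and 228 TPM, a fall of 1.83.

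For RNA polymerase II, Mediator and elongation factors the counts were 35 rises and 32 falls of 94 (46 and 24 after scaling). Nelfe, a subunit of the pausing factor NELF, was at 78.7, 82.5 and 84.5 TPM in wildtype and 208, 190 and 241 TPM in KO and rose by 1.36 (SE 0.08). The polymerase subunit Polr2l and the Mediator subunit Med19 rose by 1.28 and 1.00. Hexim1, which inhibits the elongation kinase P-TEFb, went from 34.4, 35.3 and 36.3 TPM to 16, 16.4 and 15.9 TPM and fell by 1.09. The SWI/SNF and NuRD list had 11 rises and 20 falls of 43 (15 and 13 after scaling), close to the background as deposited. Smarca2, a SWI/SNF ATPase that passed the filter through wildtype alone, fell furthest. It was at 11.6, 13.1 and 12.4 TPM against 0.452, 0.45 and 0.663 TPM and fell by 3.13 (SE 0.09, adjusted p = 1.4e-08).

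DNA methylation genes mostly fell, with 2 rises and 12 falls of 18 (5 and 12 after scaling, median −0.57). Dnmt1, which maintains methylation, fell by 1.06 (0.49 with chromosome 9 centred), the de novo enzymes Dnmt3a and Dnmt3b by 0.78 and 1.36 (Dnmt3b had passed the filter through wildtype alone), and the demethylating enzymes Tet2 and Tet3 by 0.44 and 0.99. Apobec1, a cytidine deaminase known for RNA editing, was at 28.4, 28.8 and 28.3 TPM in wildtype and 2.02, 2.42 and 2.12 TPM in KO. Its fall of 3.21 (SE 0.08) was the furthest on the list. DNA repair had 24 rises and 29 falls of 81, which turned to 38 and 23 after scaling. The nuclear pore list, at 10 rises and 41 falls of 70, became 24 and 26, and mRNA decay, at 16 and 40 of 75, became 26 and 30. Within these, the checkpoint kinase Chek1 fell by 1.44 (0.88 with chromosome 9 centred), the importin Ipo7 by 1.06, and the RNA tailing enzyme Tut4 by 1.86, while Rad51b rose by 1.17 and Lsm4 by 1.13.

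Transcription factors of proteostasis control protein folding and degradation. Their list, which also holds the chaperone gene Hspa5, had 11 rises and 14 falls of 33 (16 and 11 after scaling). As deposited, these shares were close to the background. Creb3l1, a membrane-bound factor for collagen secretion, was at 52.6, 57.1 and 54.3 TPM in wildtype and 1.24, 1.35 and 2 TPM in KO and fell by 4.47 (SE 0.11, adjusted p = 1.1e-08). Hspa5, the main endoplasmic reticulum chaperone, was at 1293, 1333 and 1338 TPM against 541, 603 and 564 TPM and fell by 1.21 (SE 0.06). Ddit3, the stress factor CHOP, went up, from 186, 172 and 157 TPM to 464, 428 and 405 TPM, a rise of 1.33 (SE 0.08). The stress-linked genes thus differed in direction, with no overlap between groups for any of the 3. Ddit3 shares exon bases with a gene on the opposite strand, and no label states the strand setting of the quantification.

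Apoptosis regulators had 15 rises and 28 falls of 51 (19 and 24 after scaling). The shares of 29.4% and 54.9% were near the 29.5% and 47.5% of all genes. Casp4, an inflammatory caspase, was at 40.3, 42.7 and 41 TPM in wildtype and 4.22, 3.52 and 3.43 TPM in KO, and Gsdmd, the pore-forming gasdermin, at 8.48, 8.05 and 7.32 TPM against 0.179, 0.275 and 0.154 TPM. They fell by 3.17 and 2.90 (SE 0.08 each), and Gsdmd had passed the filter through wildtype alone. Bad, a pro-apoptotic BCL2 relative, was at 56.2, 58.5 and 55.5 TPM against 202, 177 and 186 TPM and rose by 1.71, and the death domain adaptor Tradd rose by 1.60.

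Placental prolactin genes were higher in KO. Of 28 on the list 9 were tested, and all 9 rose, though 6 had passed the filter through KO alone and so had to rise. Prl2c3 was at 1.96, 1.11 and 0.647 TPM in wildtype and 52.2, 45.7 and 29.5 TPM in KO, and Prl3d2 at 1.21, 0.841 and 0.99 TPM against 18.2, 20.1 and 16.2 TPM. The groups of both were separate, and the list summed to 7.54 to 9.66 TPM in wildtype and 116 to 161 TPM in KO. Each belongs to a subfamily of close copies on chromosome 13, so the level of a single member is uncertain. All 10 trophoblast markers were under 1 TPM in all 6 libraries, and Cdx2 and Tpbpa were at 0.

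Markers of other cell types changed in some members, while several genes on these lists that define those cells stayed low. For macrophages, Cd68 was at 16.1, 16.4 and 16.2 TPM in wildtype and 57.1, 62 and 56.4 TPM in KO and rose by 1.78, Lyz2, which passed the filter through KO alone, rose by 1.65 and Cd14 fell by 1.54. The defining Adgre1, Ptprc, Csf1r and Tyrobp stayed under 1 TPM in all 6 libraries, with Adgre1 and Tyrobp at 0 in wildtype. Spi1, a myeloid transcription factor outside the list, was under 0.1 TPM in wildtype and at 2.51, 2.19 and 1.58 TPM in KO. It had passed the filter through KO alone. The 12 macrophage markers summed to 28.8 to 29.8 TPM in wildtype and 66.6 to 70.4 TPM in KO. Of endothelial genes, Vwf was at 0.239, 0.172 and 0.178 TPM against 8.15, 7.87 and 7.04 TPM, a rise of 2.86 (SE 0.08), and Flt1 and Kdr fell by 2.57 and 1.45. All 3 had passed the filter through 1 group only, so their calls were fixed by it. Pecam1 and Cdh5 were under 0.4 TPM throughout. Of 4 skeletal muscle markers tested, 2 rose and 2 fell, and 1 of the falls was at least 2-fold. Des rose by 2.00 along with Acta1, with Myod1, Myog and Ckm at 0.21 TPM or less.

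Of 7 smooth muscle markers tested, 1 rose, by at least 2-fold, and 5 fell (1 and 3 after scaling). Tagln fell by 1.53 (0.96 with chromosome 9 centred) and Cnn1 by 1.91. Acta2, smooth muscle actin, was at 1299, 1299 and 1227 TPM in wildtype and 1113, 1129.8 and 1174 TPM in KO; its fall of 0.16 (adjusted p = 0.026) was not called after scaling. Of 5 epithelial markers tested, 3 rose, 1 fell (0 after scaling) and 1 did not pass. Krt8, Krt19 and Cldn4 rose by 1.07, 0.64 and 1.39, while Epcam, Cdh1, Esrp1 and Grhl2 were under 0.4 TPM. The neural genes Tubb3 and Map2 rose by 0.87 and 0.37, with Sox10 and Rbfox3 under 0.1 TPM. Sox2, of the pluripotent list, fell by 1.83 from 3.62, 4.01 and 4.02 TPM and had passed the filter through wildtype alone, and Pou5f1 was under 0.1 TPM. Of 4 adipocyte markers tested, 1 rose, 2 fell and 1 did not pass. Pparg rose by 0.67, and Cebpa, which like Sox2 passed through wildtype alone, fell by 1.36. Of 3 cartilage and bone markers tested, 2 fell, Sox9 by 0.94 and Runx2 by 0.49. The 1 that rose, by at least 2-fold, had passed the filter through 1 group only. The part of other cell types in the results was not tested beyond these levels.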

How the data were processed

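Poly(A) RNA-seq of 12 libraries was deposited by the authors as 1 table of TPM per gene symbol. Salmon and mm10 are named in the submitters' processing notes, without a version. TPM keeps no depth, so no counting interval can be given. Columns of the 6 full medium libraries summed to 98.8% to 99.4% of 1e+06. Groups and replicate numbers come from the sample titles.

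Genes with at least 1 TPM in at least 3 of the 6 libraries were tested on log2(TPM + 1) with limma 3.58.1 (R 4.3.3), with a variance trend, fitted on these 6 libraries. P-values are two-sided and Benjamini-Hochberg adjusted over 12380 genes, with 0.05 as the threshold. With 3 against 3 no exact permutation p could be under 0.1. On simulated data with 200 changed genes of 12380, 95% were recovered at a log2 change of 1 and 100% at 2, and 6.7% of calls were false. The simulation gave both groups the same SD per gene, whereas the KO libraries varied more. In the data 9528 genes were called, so the simulated rates need not hold for these calls.

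The members, the 32 gene lists and 12 marker lists, and the rule for named genes were chosen with earlier results of these data known. The rule takes Rbbp5 and 12 genes per direction by size of log2 change. These 12 had a mean of at least 5 TPM in the higher group, no overlap and the same call after median-of-ratios scaling. It also takes 8 genes per direction by difference in TPM, under the same conditions, and 6 genes per direction present in 1 group only. Up to 3 members per list and direction and cell type markers complete it. Some genes that meet it are not reported here. Spi1 and others in a list were named after their values were seen. Of 231 named genes, 61 share exon bases with another gene in GENCODE vM21 and are uncertain; 12147 symbols (98.1%) matched that annotation. Figures were drawn with matplotlib 3.10.9.

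Alternatives were 4 scalings, 2 pseudocounts, filters, variance settings, library weights, all 12 libraries, a block for the replicate number, a minimum of 1.5-fold, and leaving out single libraries.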

Additional observations from a re-analysis of the deposited data

How the results depend on the processing

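Counts of genes that passed the test stayed within 1.5 times under all scalings, pseudocounts, filters, variance settings and library weights that were run, with 1 exception. Requiring more than a 1.5-fold change left 3523 genes, 1090 that rose and 2433 that fell, and 3567 after median-of-ratios scaling. The split of the calls moved with the scale: quantile normalization gave 5107 rises and 4587 falls, median-of-ratios 4771 and 4918. Fitting all 12 libraries together gave 2541 rises and 4485 falls. Leaving out 1 library at a time gave 8678 to 9980 genes, 3306 to 4058 rises and 5372 to 5988 falls, and −1.61 to −1.46 for Rbbp5. Lists with more falls than rises numbered 26 of 32, 21 after either median-of-ratios scaling or chromosome centring. With chromosomes centred, Sdhd (0.0475), Tkt (0.0812) and Tpt1 (0.0244) changed sign without passing the test (adjusted p = 0.57, 0.2 and 0.82). For 230 other named genes, 82 of the single alternatives ended a call and 4482 did not.

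With the replicate number as a block, 3616 genes rose and 5812 fell (9428 in all, and 9568 after median-of-ratios scaling), and Rbbp5 was at −1.53. Same-numbered libraries of the 2 groups correlated at −0.03, 0.02 and 0.01 in their deviations, and differently numbered ones at −0.12 to 0.08. With deviations from means of 3 libraries, these values cannot decide whether the numbers pair the libraries.

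TPM hold no depth, so the precision of genes near 1 TPM is unknown, and KO libraries were more variable than wildtype libraries (median SD of log2 values 0.122 and 0.0476).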
